A study of Mus musculus with 32 samples.

Results

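CRC primary cells (TP) were compared with Kupffer cells of the tumor microenvironment (KT), and the samples were chosen by their labels alone. The comparison covers all 4 TP and all 4 KT samples, 8 of the 32 samples in 8 groups of the series, each with 4 biological replicates. The animals were male Balb/c mice without a stated genetic alteration. The KT cells came from livers of mice that had received C26 cells, a murine colon carcinoma line syngeneic with Balb/c, into the spleen. They were separated from the other non-parenchymal liver cells by Percoll gradients and adherence and were kept in culture for a short time. The control Kupffer cells (KC), which are used here only as a reference beside KT, came from mice given PBS in place of tumor cells and were isolated the same way. The TP label names primary cells of colorectal cancer. The study describes them as collected from mice with induced colorectal cancer, and its methods do not give how they were isolated, so that the host cells they hold are not known. The cells labelled tumor liver metastasis (TM), the reference beside TP, have the same limit. TP and KT were both labelled with Cy5 and hybridised on the same slide, TP on the arrays that held TM and KT on the arrays that held KC. The tumor model rests on 1 line, C26.

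Kupffer cells are the resident macrophages of the liver sinusoids. They hold scavenger and complement receptors with which they clear particles, dying cells and iron from the blood, and they answer microbes and interferon with cytokines and chemokines. Tumor cells that lodge in the sinusoids come into contact with them, and the traffic between both runs through growth factors such as Csf1 and Il34, chemokines, and the receptors for them on the macrophage. A carcinoma cell that divides is in turn marked by the genes of the S phase and of mitosis, and a carcinoma cell that has lost its epithelial form by mesenchymal transcription factors and matrix genes.

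All values below are log2 quantile-normalised signals per library, differences are TP minus KT on that log2 scale with the standard error of the fit, and adjusted p-values come from limma over 55681 probes. A gene was called higher or lower in TP where the adjusted p was below 0.001 and the groups differed 4-fold or more. Over all probes 4139 were called higher and 4690 lower, 15.9% together. With 1 probe for each of 19111 genes, 2011 (10.5%) were called higher and 2719 (14.2%) lower, and these shares are the background of the gene lists below. The TP libraries had 38.4 to 43.7% of their spots well above background and the KT libraries 49.2 to 51.5%. Pearson's r between libraries over all probes was 0.969 to 0.979 within TP, 0.985 to 0.989 within KT and 0.854 to 0.877 between them, given as a description. The median difference over all probes was 0.09, and it was 0.61 when each channel was scaled to its 75th percentile in place of quantile normalisation. Where a gene was well above background in no library of a group, only a bound is given, written as at least N-fold, computed after loess normalisation of each array against its own partner channel. Where only some libraries of a group were well above background, their number is given, and the size of such a difference rests in part on signals at background.

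The library labelled KT replicate 4 went against its label. Over 17050 probes well above background in all 32 channels, its median absolute log2 difference was 0.26 to KT replicates 1, 2 and 3, but 0.11 and 0.14 to KC replicates 1 and 2. The library labelled KC replicate 4, on the same array, lay 0.12 to 0.13 from KT replicates 1 to 3 and 0.28 to 0.32 from KC replicates 1 and 2. KT replicates 1 to 3 lay 0.07 to 0.09 from each other. Over the same probes, the difference KT minus KC on that array correlated at -0.6 with the mean of the other 3 arrays, against 0.40 to 0.46 for each of those, so that this array ran in the opposite direction. The labels were kept. KC replicate 3 lay 0.46 to 0.55 from every other KC and KT library, and the KC means below hold all 4 KC libraries. The distance of TP from KT, 0.97 to 1.09 in all 16 pairs, was above all of these. For the genes named, calls that were lost without the library labelled KT replicate 4 are given below with their values. Of the TP libraries, replicates 1 and 2 lay 0.15 apart and the other pairs 0.24 to 0.36. TM libraries lay among them, with TM replicate 4 at 0.16 from TP replicate 2 and TM replicate 1 at 0.20 from TP replicate 3, while TM replicates 2 and 3 lay 0.40 to 0.52 from all TP libraries. TP minus TM correlated at -0.2 and -0.06 with the other arrays on arrays 1 and 4 and at 0.64 on arrays 2 and 3, and the TM means below hold all 4 TM libraries.

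**Figure D1:**
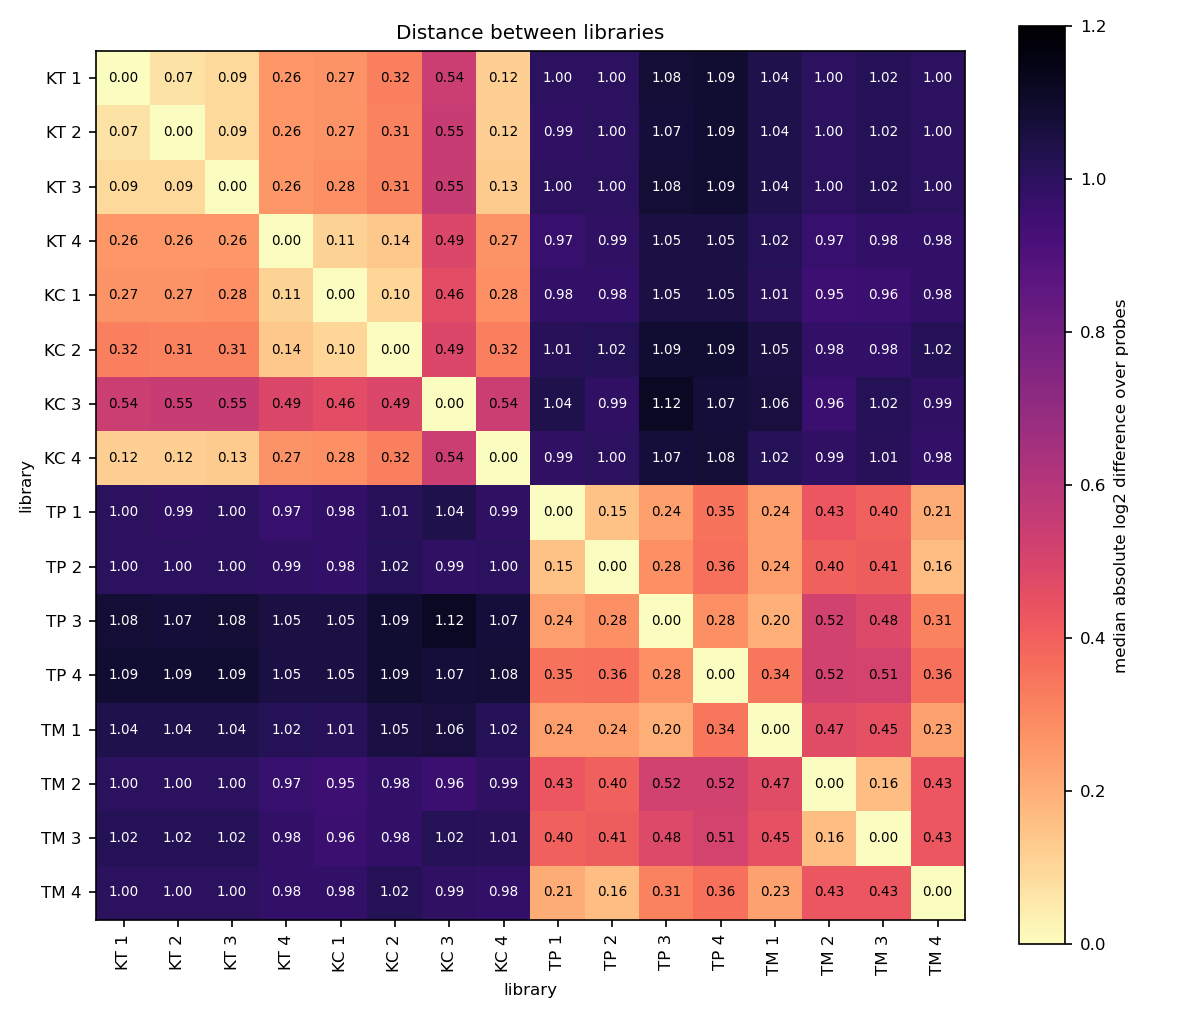
Median absolute log2 difference between each pair of the 16 KT, KC, TP and TM libraries over 17050 probes well above background in all 32 channels, with both axes listing the libraries and the value printed in each cell. The library labelled KT replicate 4 sits at 0.11 and 0.14 from KC replicates 1 and 2 and at 0.26 from the other KT libraries, TP sits near 1 from every KT library, and TM replicates 1 and 4 sit within 0.36 of every TP library.

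The genes that mark the cells followed the labels. S100a4 encodes a calcium-binding protein of motile and mesenchymal cells, and its probe lies at chr3:90409908-90409967 (mm9, the build of the array files). It read 16.96, 17.46, 17.56 and 17.47 in TP and 8.88, 9.02, 8.88 and 6.54 in KT. All TP libraries lay far above all KT libraries, the difference was 9.04 (SE 0.85, adjusted p = 8.61e-10, 526-fold), and it was 8.44 without the library labelled KT replicate 4, the lowest of the KT values. Mki67, the Ki-67 antigen of cycling cells (chr7:142884764-142884823), read 12.22, 12.24, 12.48 and 13.08 in TP and 7.32, 7.28, 7.54 and 8.06 in KT, a difference of 4.95 (SE 0.53, adjusted p = 8.79e-09). Vsig4, the complement receptor of tissue-resident macrophages (chrX:93442598-93442657), went the other way. It read 13.64, 13.61, 13.63 and 12.77 in KT and 5.81, 4.39, 2.05 and 1.98 in TP, where 1 of 4 libraries was well above background, and the difference was -9.85 (SE 0.84, adjusted p = 1.37e-10). For each of these genes the exact two-sided permutation test of 4 against 4 libraries gave p = 0.0286, the smallest this design allows, and the same value after Benjamini-Hochberg adjustment over the 3 tests. The groups did not overlap. Over all probes TP lay wholly above KT on 26.6% and wholly below on 18.4%, so a lack of overlap was common. The KC and TM means beside these were 7.22 and 17.04 for S100a4, 7.41 and 11.45 for Mki67, and 12.76 and 2.34 for Vsig4.

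**Figure D2:**
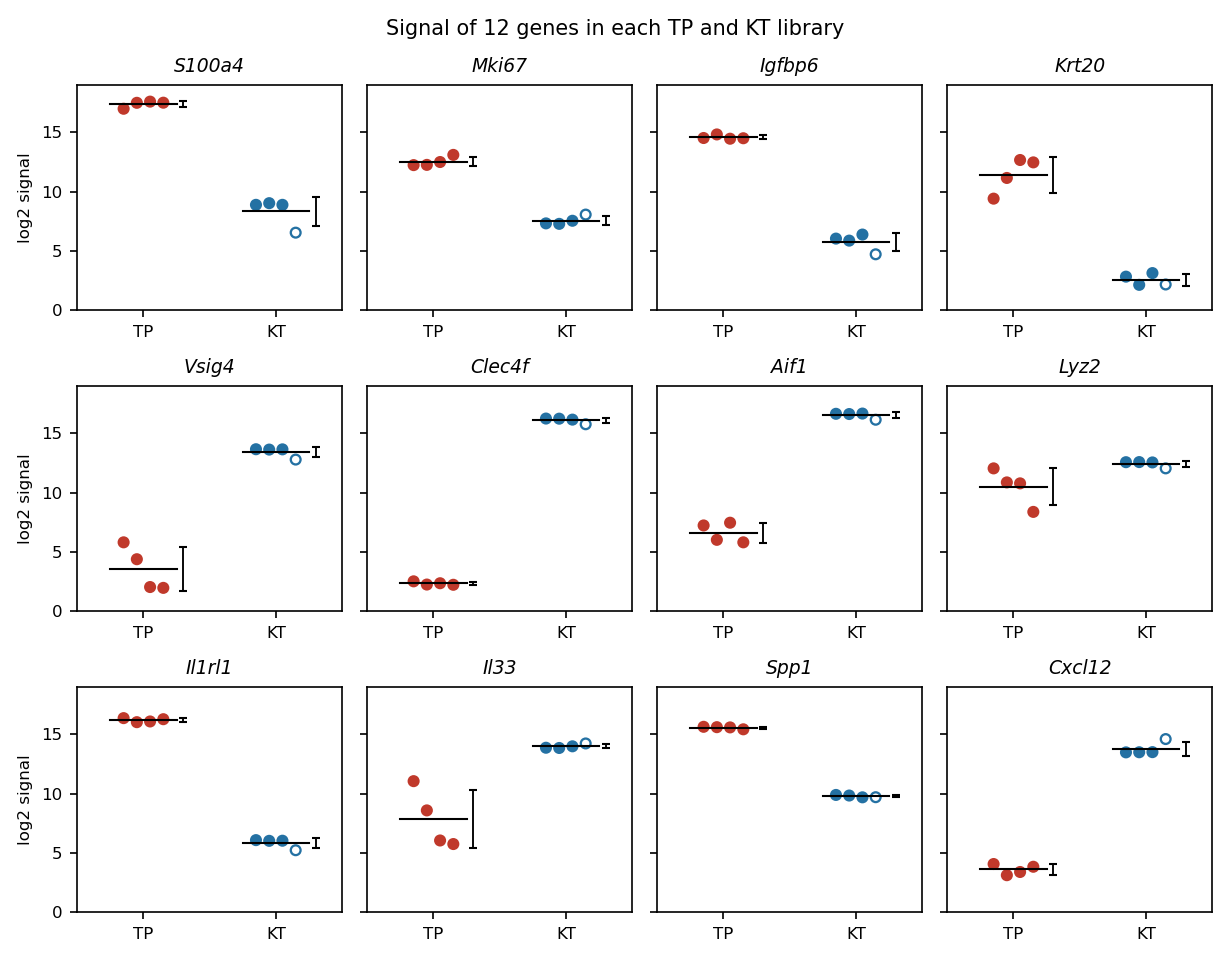
Log2 normalised signal of 12 genes in each TP (red) and KT (blue) library, with a line at the mean and a bar for the SD of 4 libraries, and the library labelled KT replicate 4 as an open circle. S100a4, Mki67, Igfbp6, Krt20, Il1rl1 and Spp1 sit higher in TP, Vsig4, Clec4f, Aif1, Il33 and Cxcl12 sit higher in KT, and the highest TP value of Lyz2 nears the KT values.

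The program of cell division was higher in TP almost as a whole. Of 25 measured genes of mitosis, 23 were called higher and none lower, against 10.5% of all genes called higher and 14.2% called lower (7.43% and 8.42% of all probes), and the median difference of the list was 6.33 (5.17 when the 6 genes well above background in no KT library are set at their bounds). In bulk samples, fewer cells that express a gene and less RNA per cell cannot be told apart, here and in all that follows. Ccnb1, the B-type cyclin that takes cells into mitosis, read 12.30, 12.48, 13.08 and 13.26 in TP and 3.73, 4.59, 4.33 and 2.28 in KT, with only 1 KT library well above background (difference 9.05, SE 0.69, adjusted p = 1.56e-11). The difference of Ccnb1 was 6.20 to 9.33 under the alternative settings. Ccna2, the cyclin of S phase and G2, differed by 8.55 (SE 0.81, adjusted p = 1.06e-09) and was well above background in 3 of 4 KT libraries. Bub1, a kinase of the spindle checkpoint, read 9.89 to 11.19 in TP and was well above background in no KT library, which makes it at least 21.5-fold higher. The members that missed the call were Tpx2, a spindle assembly factor that read 11.35 to 12.22 in TP and 10.46 to 11.18 in KT (difference 1.13, adjusted p = 0.0538), and Aurkb, the kinase of the chromosomal passenger complex, whose probe was well above background in no TP library.

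Most genes of DNA replication were higher in TP too. Of 26 measured, 18 were called higher and 1 lower, and the median difference was 3.26 (2.94 with 1 gene at its bound). Rrm2, the small subunit of ribonucleotide reductase, read 12.63, 12.50, 13.27 and 13.58 in TP and 6.57, 6.73, 3.55 and 6.13 in KT, where 3 of 4 libraries were well above background. KT replicate 3 stood low, and the difference was 7.25 (SE 0.91, adjusted p = 1.45e-07). Tk1, the thymidine kinase of the salvage pathway, differed by 6.19 (SE 0.63, adjusted p = 3.37e-09), and Pole, the catalytic subunit of DNA polymerase epsilon, by 5.90 (SE 0.50, adjusted p = 1.19e-10). All 6 subunits of the Mcm2 to Mcm7 helicase were called higher, from 2.76 for Mcm4 to 3.93 for Mcm5. Tyms, the thymidylate synthase, read 7.89 to 9.18 in TP and 8.89 to 9.18 in KT and was not called (difference -0.61, adjusted p = 0.0991).

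The promoters of all 27 lists were searched for 14 motifs, of which those known from cell cycle control are given here. The 3 promoters shown were taken from called genes whose 250 bases before the start held the motif or motifs marked. Their matches were thus a condition for being shown. A promoter window here is 250 bases before to 50 after a gene's start in RefSeq (GRCm38.p6), and 32851 windows of 27025 genes were searched on both strands. TTTGAA, the core of the cell cycle homology region, was present in 15 of the 21 mitosis genes with a window (71.4%, against 20.2% of all genes), and CCAAT, the NF-Y box, in 17 (81.0%, against 41.1%). For DNA replication, TTTGGCGC, a form of the E2F site, was present in 5 of 21 (23.8%, against 0.585%) and TTTCCCGC, another form, in 4 (19%, against 1.24%), so that most windows of that list held neither. TTTGAA was in 3 of these 21 (14.3%) and CCAAT in 14 (66.7%), and neither E2F form was in any of the 21 mitosis windows. A match describes the letters in the window and is not a site. The first 2 sequences, of Ube2c (chr2:164769679-164769928, plus strand) and Top2a (chr11:99024190-99024439, minus strand), are the 250 bases before the start with TTTGAA and CCAAT, read on either strand, in capitals. The third, of Pola1 (chrX:93632156-93632405, minus strand), has its match to TTTGGCGC, on the opposite strand, in capitals.
Ube2c: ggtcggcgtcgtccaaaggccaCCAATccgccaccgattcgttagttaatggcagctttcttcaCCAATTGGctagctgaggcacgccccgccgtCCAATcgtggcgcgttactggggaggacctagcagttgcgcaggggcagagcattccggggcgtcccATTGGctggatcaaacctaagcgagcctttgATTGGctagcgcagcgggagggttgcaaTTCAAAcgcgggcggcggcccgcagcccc
Top2a: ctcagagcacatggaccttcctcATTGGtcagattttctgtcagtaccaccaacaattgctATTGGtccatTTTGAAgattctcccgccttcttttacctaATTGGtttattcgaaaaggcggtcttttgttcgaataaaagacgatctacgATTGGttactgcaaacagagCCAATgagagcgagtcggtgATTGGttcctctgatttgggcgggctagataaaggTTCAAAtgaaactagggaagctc
Pola1: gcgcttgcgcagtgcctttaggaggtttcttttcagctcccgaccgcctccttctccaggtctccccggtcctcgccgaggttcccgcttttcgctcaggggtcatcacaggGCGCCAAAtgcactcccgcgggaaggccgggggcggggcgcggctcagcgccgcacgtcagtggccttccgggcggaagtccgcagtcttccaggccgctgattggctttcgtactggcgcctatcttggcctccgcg

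These 3 genes were among those higher in TP. Ube2c, the ubiquitin-conjugating enzyme of the anaphase-promoting complex, holds 7 matches in the stretch shown and read 11.93 to 13.07 in TP and 2.87 to 5.05 in KT, 3 of 4 KT libraries above background (difference 7.97, SE 0.79, adjusted p = 2.3e-09). Top2a, the topoisomerase that untangles sister chromatids, holds 8 matches and read 11.90 to 12.62 in TP and 3.92 to 4.86 in KT, again with 3 of 4 above background (7.57, SE 0.73, adjusted p = 1.51e-09). For Pola1, the catalytic subunit of DNA polymerase alpha, with 1 match, the values were 11.03 to 12.21 and 7.35 to 7.61 (3.93, SE 0.31, adjusted p = 2.68e-11). Their KC means were 3.1, 3.25 and 7.28.

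Genes of ribosome biogenesis were called in 1 direction and those of glycolysis in both. Of 19 measured genes of ribosome biogenesis and Myc, 4 (21.1%) were called higher, against 10.5% of all genes, and none lower, with a median of 1.52. The count of 4 was 15 with an adjusted p below 0.05 and no minimum fold, and 1 on the probe with the highest mean. Npm1, the nucleolar chaperone nucleophosmin, read 14.05 to 14.57 in TP and 10.43 to 11.50 in KT (difference 3.58, SE 0.26, adjusted p = 5.92e-12), Wdr12, a factor of 60S ribosome assembly, differed by 2.90 (SE 0.25), and Cdk4, the cyclin D kinase, by 2.20 (SE 0.16). Nop56 and Nop58, of the box C/D snoRNP, joined them when the library labelled KT replicate 4 was left out, which made 6. Myc itself read 9.76 to 9.97 in TP and 10.18 to 11.15 in KT (difference -0.61, adjusted p = 0.121). Of 19 glycolytic genes, 2 were called higher and 1 lower, shares near or below those over all genes. The median was 0.30, and 0.96 with scaling to the 75th percentile. Without KT replicate 1 or KT replicate 2, 2 were lower. Pfkm, the muscle form of phosphofructokinase, differed by 4.14 (SE 0.28, adjusted p = 1.07e-12) and Pdk1, which keeps pyruvate from the mitochondrion, by 3.44 (SE 0.44, adjusted p = 1.72e-07). Pfkfb3, which makes the activator of phosphofructokinase, had the largest difference of the list. It read 14.75, 14.91, 14.80 and 14.82 in KT against 7.19, 5.80, 5.20 and 3.71 in TP, with 3 TP libraries above background (difference -9.35, SE 0.78, adjusted p = 8.3e-11).

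**Figure D3:**
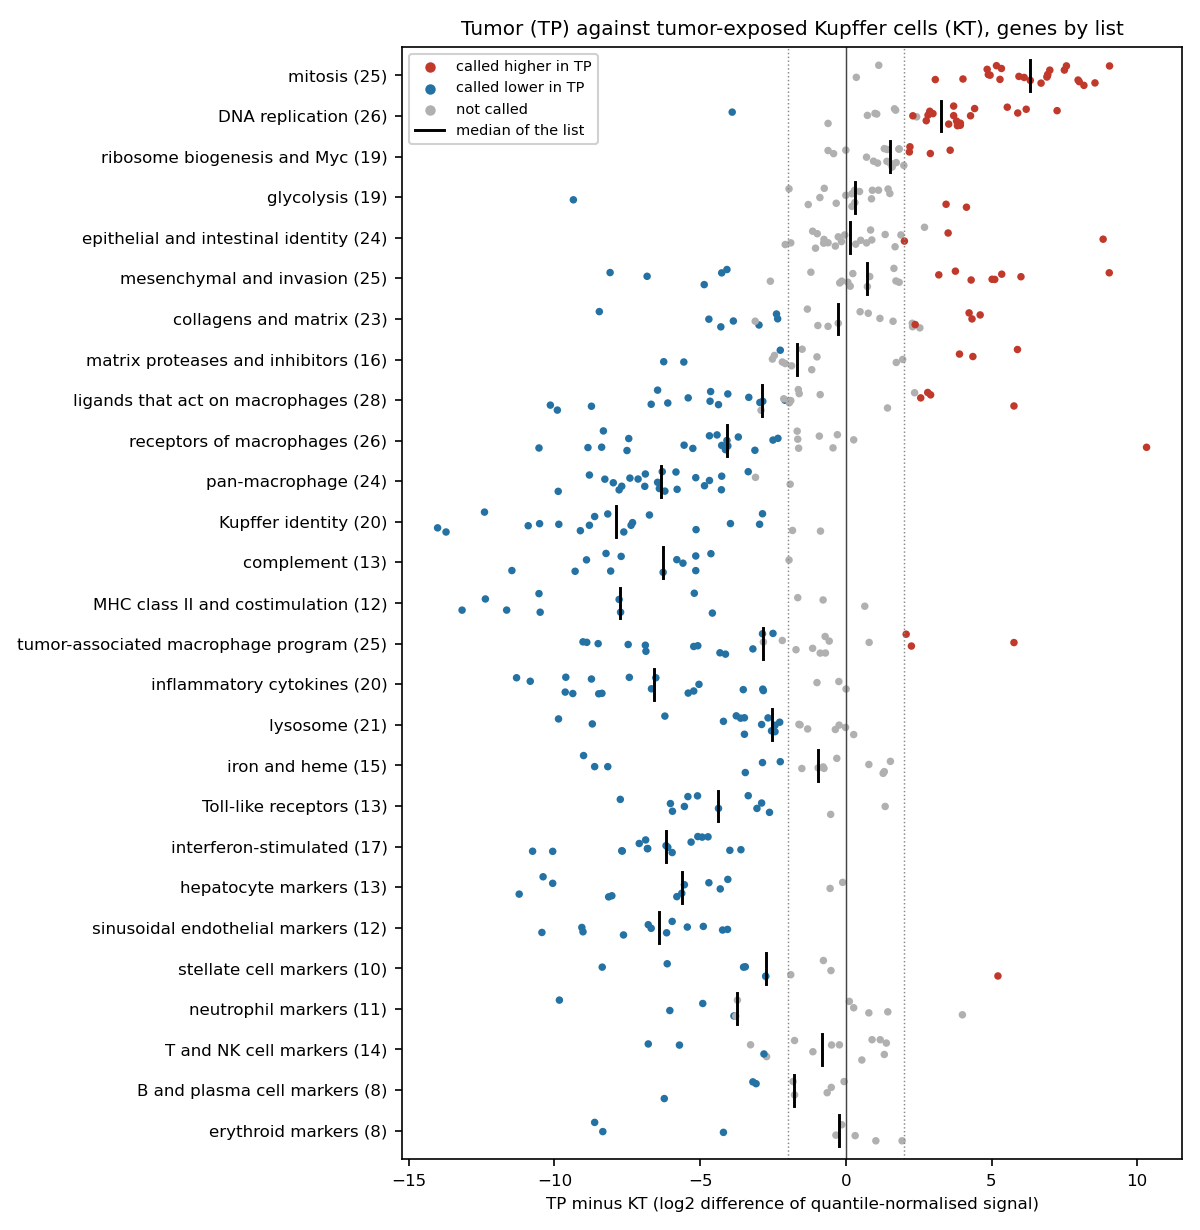
TP minus KT difference (log2) of each measured gene of 27 lists, with the number measured in parentheses, genes called higher in red and lower in blue, dotted lines at 4-fold and a black bar at the list's median. Mitosis and DNA replication lie to the right with medians of 6.33 and 3.26, the matrix and epithelial lists straddle 0, and the macrophage lists lie to the left.

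Most epithelial genes were not above background in TP, and most were not in KT. Of 24 measured genes of epithelial and intestinal identity, 15 were well above background in no TP library and 16 in no KT library. Of the 24, 3 (12.5%) were called higher, near the 10.5% of all genes called higher, and none lower. Among those not above background in TP were Epcam (2.57 to 3.31) and Cdh1 (2.15 to 2.26), the surface adhesion protein and the E-cadherin by which epithelial cells are usually known. Krt20, a keratin of the colon surface, was 1 of the 3 called higher. It read 9.40, 11.14, 12.65 and 12.45 in TP, was well above background in no KT library and was at least 34.7-fold higher. Krt18, a keratin of simple epithelia, read 9.57, 12, 11.16 and 10.75 in TP and 6.95, 6.75, 7 and 8.73 in KT (difference 3.51, SE 0.79, adjusted p = 0.000548), and Lgals4, a galectin of the gut, differed by 2.01 (SE 0.48, adjusted p = 0.000943). Krt18 lost its call in 12 of 22 alternative settings (2.93 to 3.97), among them the loss of any 1 of 6 libraries, and Lgals4 in 15 of 22, among them the fit without the library labelled KT replicate 4 (1.98, adjusted p = 0.00314). The count of 3 higher was 1 without TP replicate 3 or KT replicate 3, and 1 gene was lower without TP replicate 4 or the library labelled KT replicate 4. Epcam and Cdh1 were thus not found above background in TP, and the cells are called here by their label.

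Mesenchymal genes split into a set that was higher in TP and a set that was higher in KT. Of 25 measured, 8 (32%) were called higher and 5 (20%) lower, against 10.5% and 14.2% of all genes. Beside S100a4, the higher set held Tpm2, a tropomyosin (11.97 to 12.37 against 4.23 to 6.88 with 3 KT libraries above background, difference 6.01, SE 0.96, adjusted p = 7.33e-06), S100a6, a neighbour of S100a4 in the same gene cluster (17.10 to 17.45 against 10.98 to 12.27, difference 5.35, SE 0.70), and Fn1, fibronectin (4.30, SE 0.54). It also held the transcription factors of the mesenchymal state Prrx1 (5.11, SE 0.37), Twist2 (5.02, SE 0.47), Snai2 (3.76, SE 0.30) and Twist1 (3.19, SE 0.35), while Zeb1 (0.24) and Snai1 (0.82) were not called. The intermediate filament vimentin, Vim, which macrophages carry as well, read 15.88 to 16.48 in TP and 15.98 to 16.20 in KT. Among those lower in TP, Ctgf, a matricellular growth factor, read 5.94, 2.70, 6.71 and 7.20 in TP and 13.36, 13.47, 13.45 and 14.60 in KT, with 3 TP libraries above background (difference -8.09, SE 1.11, adjusted p = 7.19e-07), and Tagln, transgelin of contractile cells, differed by -4.86 (SE 0.85, adjusted p = 2.35e-05).

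Matrix genes were called in both directions. Of 23 measured collagens and matrix genes, 4 (17.4%) were called higher and 7 (30.4%) lower, against 10.5% and 14.2% of all genes. The sign of the median changed with the genes counted. It was -0.26 over the list, 0.49 over the 19 members above background in both groups, and 0.11 with probes dim in both groups left out. Both chains of the fibrillar collagen I were higher in TP. Col1a2 read 14.75 to 15.06 in TP and 10.20 to 10.87 in KT (difference 4.33, SE 0.44, adjusted p = 3.56e-09), and Col1a1 differed by 4.61 (SE 0.98, adjusted p = 0.000303). The call of Col1a1 was lost in 4 of 22 alternative settings. Among them were the fits without TP replicate 2, without TP replicate 4 and without the library labelled KT replicate 4 (4.11, adjusted p = 0.00219 for the last). Col6a1, of the collagen VI microfibril, differed by 4.23 (SE 0.50). The chains of collagen IV, the network collagen of basement membranes, were lower, with Col4a1 at -4.70 (SE 0.39, adjusted p = 8.69e-11) and Col4a2 at -2.98 (SE 0.25). Postn, periostin of activated fibroblasts, was well above background in no TP library and at least 18.0-fold lower, and Tnc, tenascin C, differed by -4.29 (SE 0.71) with 2 TP libraries above background. Among 16 matrix proteases and inhibitors, 3 (18.8%) were called in each direction, shares not far above those over all genes. Mmp2, gelatinase A, read 11.98, 12.40, 10.21 and 10.20 in TP and 5.13 to 5.56 in KT (difference 5.89, SE 0.72, adjusted p = 1.09e-07), its inhibitor Timp2 differed by 4.36 (SE 0.31) and Plat, the tissue plasminogen activator, by 3.90 (SE 0.41). Mmp13, collagenase 3, differed by -6.25 (7.41 to 10.56 against 14.91 to 15.15, adjusted p = 5.44e-10), Adam8, a protease of leukocytes, differed by -5.56 (SE 0.80) and Mmp14, the membrane-bound collagenase, by -2.25 (SE 0.30).

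Of 28 measured ligands that act on macrophages, 15 (53.6%) were called lower in TP, against 14.2% of all genes. The 4 (14.3%) called higher were near the 10.5% of all genes. Spp1, osteopontin, read 15.61, 15.58, 15.56 and 15.40 in TP and 9.88, 9.83, 9.68 and 9.69 in KT (difference 5.77, SE 0.49, adjusted p = 1.28e-10, 54.4-fold), with 15.84 in TM and 9.29 in KC. It is known from tumor-associated macrophages as well. Il34, which shares the receptor Csf1r with Csf1, read 11.16, 11.30, 9.89 and 9.87 in TP and 7.08 to 7.93 in KT (2.91, SE 0.36, adjusted p = 9.48e-08). Csf1 itself, the main growth factor of macrophages, read 11.50 to 11.66 in TP and 13.39, 13.33, 13.38 and 14.58 in KT (-2.09, SE 0.42, adjusted p = 0.000169). The call of Csf1 was lost in 6 of 22 alternative settings, among them the fit without the library labelled KT replicate 4 (-1.79, adjusted p = 0.00151). Thus both ligands of Csf1r were well above background in all 8 libraries, with opposite signs. Hmgb1, a nuclear protein that acts as an alarm signal outside the cell, differed by 2.81 (SE 0.26) and Anxa1, annexin A1, a ligand of the Fpr receptors, by 2.57 (SE 0.21). Mif, the macrophage migration inhibitory factor (15.29 to 15.43 against 13.20 to 14.19), and Cx3cl1, fractalkine (7.75 to 8.39 against 5.67 to 5.79), were not called (adjusted p = 0.00228 and 0.0328).

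The ligands lower in TP included chemokines, cytokines and growth factors. Cxcl12, which holds leukocytes and tumor cells through Cxcr4, was well above background in no TP library (3.13 to 4.07) and read 13.46, 13.47, 13.48 and 14.58 in KT, at least 122-fold higher there. Vegfc, the lymphatic growth factor, was likewise at least 49.5-fold higher in KT and Csf2, GM-CSF, at least 7.07-fold. Ccl5, which draws monocytes and T cells, read 17.60, 17.66, 17.63 and 17.51 in KT and 7.95 to 10.02 in TP (-8.73, SE 0.35, adjusted p = 3.78e-17). The monocyte chemokines Ccl2 and Ccl7 were high in both. Ccl2 read 14.75 to 15.42 in TP and 17.63 to 18.30 in KT (-2.85, SE 0.64, adjusted p = 0.000557). That call was lost in 10 of 22 alternative settings, among them the fit without the library labelled KT replicate 4 (-2.71, adjusted p = 0.00258). Ccl7 differed by -4.64 (SE 0.83, adjusted p = 3.28e-05). Cxcl1, a ligand of Cxcr2, differed by -6.68 (SE 0.73) and Il6 by -5.41 (SE 1.05), and in both TP replicate 1 was the highest TP library. The remaining called members were Il11 (-3.33, with 3 KT libraries because the spot of replicate 3 was an outlier), Cd47 (-2.95), the ligand of Sirpa that keeps macrophages from engulfing a cell, Pgf (-4.66, 3 TP libraries above background), Csf3 (-4.37, 1 library) and Cd24a, which was above background in no TP library. Not called were Vegfa, Lif, Cxcl5, Tgfb1, Tgfb2, Gas6 and Ccl8, from -0.88 for Vegfa to -2.91 for Ccl8, the last with 3 KT libraries.

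Most receptors of macrophages were lower in TP. Of 26 measured, 18 were called lower, 1 was called higher and 7 were not called, and the median difference was -4.06 (-1.79 with the 7 members below background in a group at their bounds and 2 members below background in both at 0). The one called higher was Il1rl1, the receptor of interleukin 33, which was the largest difference upward among genes well above background in all 8 libraries. It read 16.34, 16.00, 16.06 and 16.25 in TP and 6.08, 6.02, 6.03 and 5.23 in KT (10.32, SE 0.73, adjusted p = 3.17e-12, 1280-fold), both other probes of the gene had the same sign, and TM read 14.70. Its ligand Il33 had the opposite sign, with 13.85, 13.83, 13.97 and 14.21 in KT and 11.04, 8.58, 6.05 and 5.75 in TP (-6.11, SE 1.13, adjusted p = 5.31e-05), and TP replicate 4 was not well above background. The call of Il33 was lost in 4 of 22 alternative settings.

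The growth factor receptor Csf1r read 10.19, 10.25, 10.24 and 9.81 in KT and 6.33, 5.64, 5.11 and 4.71 in TP, where 2 of 4 libraries were well above background (-4.68, SE 0.54, adjusted p = 3.96e-08). Csf2ra and Csf2rb, the chains of the GM-CSF receptor, differed by -7.45 (SE 0.55) and -5.55 (SE 0.75). The chemokine receptors Cxcr4 (-4.42, SE 0.63, 1 TP library above background), Ccr1, Ccr2 and Cx3cr1 were all called lower in TP, the last 3 well above background in no TP library. Of 22 alternative settings, the call was lost in 6 for Cx3cr1, in 3 each for Cxcr4 and Ccr2 and in 2 for Ccr1. The difference of Cx3cr1 ran from -2.79 to -0.76 over these settings. The formyl peptide receptors Fpr1 and Fpr2, which sense bacterial peptides and annexin A1, differed by -8.85 (SE 0.84) and -8.38 (SE 0.70) with 2 and 3 TP libraries above background, and Cd74, which binds Mif, by -10.53 (SE 0.67) with 2. Sirpa, the receptor of Cd47, read 13.25 to 14.54 in KT and 8.43 to 9.55 in TP (-5.25, SE 0.88), and Mertk, which engulfs dying cells, differed by -4.26 (SE 0.39). Lifr was at least 10.2-fold lower, and Il6ra differed by -2.33 (SE 0.12). Flt1, Siglecg and Cd44 were called lower too, but 1 of the 3 other Cd44 probes had the opposite sign. Flt1 lost its call in 4 of 22 alternative settings and Siglecg in 3. Not called were Axl (13.21 to 13.52 in TP, 14.01 to 14.75 in KT), Itgav, an integrin that binds osteopontin (7.22 to 7.71 against 8.92 to 9.29), Nrp1, Tgfbr2, Csf3r, Cxcr2 and Tgfbr1. The probes of Cxcr2 and Tgfbr1 were well above background in no library of either group, and both other probes of Tgfbr1 had the opposite sign.

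**Figure D4:**
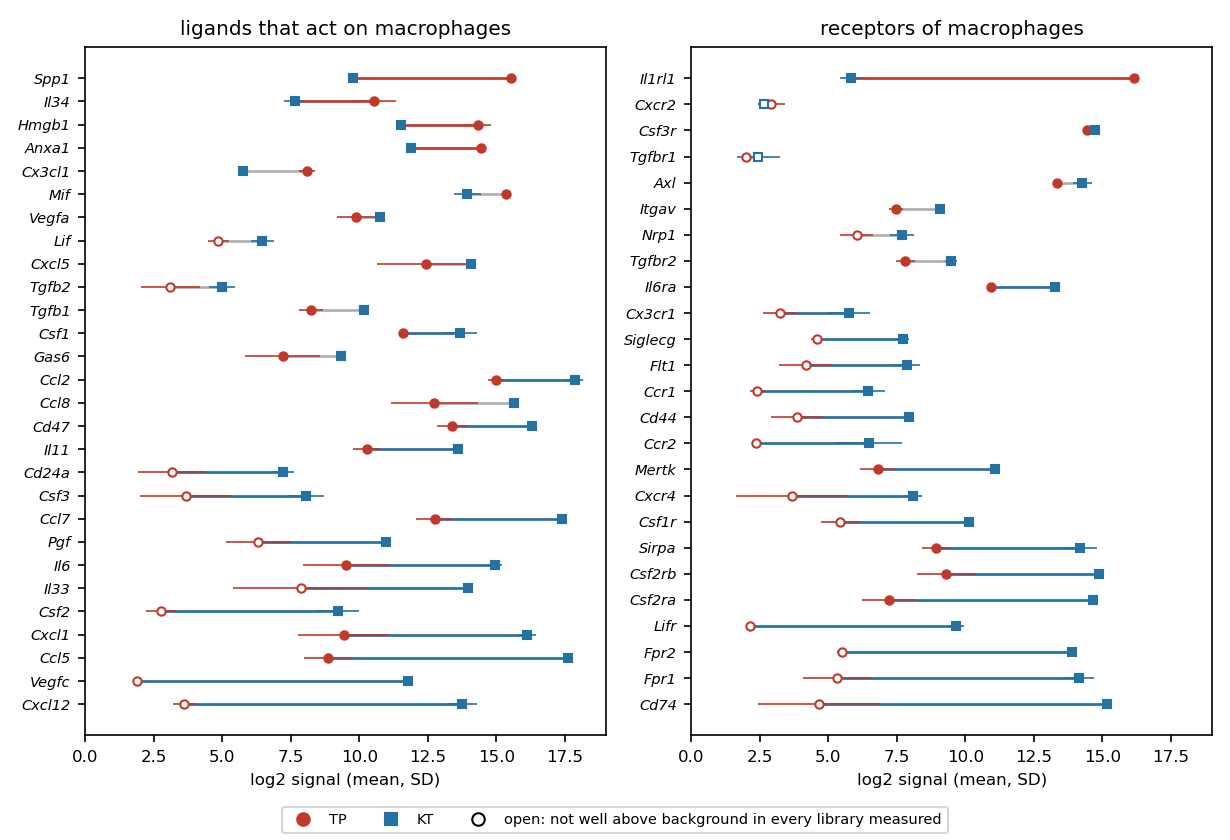
Mean log2 signal (bar, SD) in TP (red circle) and KT (blue square) of 28 ligands that act on macrophages and 25 of the 26 receptors, joined by a line coloured by the call (red higher in TP, blue lower, grey not called), with open symbols where the gene was not well above background in every library measured. Spp1 and Il1rl1 stand furthest to the TP side, and Cxcl12, Vegfc and Cd74 furthest to the KT side.

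Pan-macrophage genes were lower in TP but not absent from it. Of 24 measured, 22 were called lower and none higher, with a median of -6.35, and the summed linear signal of the list ran from 4591 to 23506 in TP and from 498313 to 643541 in KT. Aif1, the macrophage protein Iba1, read 16.62, 16.60, 16.64 and 16.12 in KT and 7.23, 6.02, 7.46 and 5.81 in TP (-9.87, SE 0.66, adjusted p = 1.19e-12). Fcgr1, the high-affinity IgG receptor, differed by -8.80 (SE 0.69) and Mpeg1, perforin-2, by -8.27 (SE 0.64), well above background in 2 and 1 TP libraries. Sfpi1, the myeloid transcription factor PU.1, was above background in no TP library and at least 23.7-fold lower. Lyz2 and Coro1a, named here after their values were seen, were not called. Lyz2, lysozyme M, read 12.03, 10.85, 10.77 and 8.37 in TP and 12.55, 12.56, 12.53 and 12.03 in KT (-1.91, adjusted p = 0.0395), and Coro1a, a coronin of leukocytes, missed the call with KT replicate 3 at 8.17 against 12.05 to 12.93 in the other KT libraries. Macrophage signal varied between the TP libraries. TP replicate 1 was the highest TP library for 21 of the 24 genes and TP replicate 4 the lowest for 20, and the median level of the list was 7.49, 6.44, 6.37 and 4.97 in TP replicates 1 to 4 against 12.32 to 12.62 in KT. Whether macrophages were present in the TP cells was not tested.

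The genes of Kupffer identity were lower in TP as well. Of 20 measured, 18 were called lower in TP and none higher, with a median of -7.90 (-7.35 with 8 genes at their bounds). Cd5l, which macrophages secrete into the blood, read 17.21, 17.25, 17.30 and 15.86 in KT and was at least 1590-fold higher there, Clec4f, a lectin of Kupffer cells, at least 649-fold (16.22, 16.21, 16.13 and 15.74), and Spic, the transcription factor of iron-recycling macrophages, at least 563-fold. None of these was well above background in any TP library, nor were Timd4 (at least 26.4-fold), a receptor for dying cells, Clec1b, C6 (10.9), Hpgd (3.29) or Cd163 (1.17). Of the scavenger receptors and lectins, Siglec1 differed by -10.90 (SE 0.67, 1 TP library above background), Marco by -10.51 (SE 0.82, 2 libraries), Fcna by -8.80 (SE 0.57, 3 libraries) and Folr2, the folate receptor of resident macrophages, by -7.32 (SE 0.93). The iron transporters Slc40a1, ferroportin, and Slc11a1 differed by -8.62 (SE 0.74, 1 TP library above background) and -8.17 (SE 0.41). Il18bp differed by -7.37 (SE 0.40), Vcam1 by -3.96 (SE 0.26) and Pltp by -2.96 (SE 0.68). The call of Pltp was lost in 11 of 22 alternative settings, among them the fit without the library labelled KT replicate 4 (-2.91, adjusted p = 0.00237). Id3 (12.41 to 12.80 in TP, 13.28 to 13.67 in KT) and Nr1h3, the liver X receptor (9.91 to 10.56 against 11.34 to 12.36), were not called.

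Complement and antigen presentation followed. Of 13 complement genes, 12 were called lower in TP. C2 of the classical pathway read 15.63 to 15.80 in KT and 5.95, 2.11, 4.17 and 4.75 in TP, 1 of them above background (-11.46, SE 0.61, adjusted p = 1.31e-14). C1qa and C1qc, chains of C1q, differed by -9.29 (SE 0.91) and -8.90 (SE 0.96) with 2 TP libraries above background each, and TP replicate 1 was the highest TP library for 12 of the 13 genes. Of 12 genes of MHC class II and costimulation, 9 were called lower. H2-Eb1, a beta chain of class II, read 15.24, 15.19, 15.06 and 15.90 in KT and 2.12 to 2.22 in TP, at least 423-fold lower, H2-Ab1 differed by -12.37 (SE 0.59, -12.96 to -9.49 under the alternative settings) with 1 TP library above background, and Cd40, the costimulatory receptor, was at least 141-fold lower. Cd80, a costimulatory ligand (6.99 to 7.76 in TP, 8.84 to 9.26 in KT) was not called, nor were Ciita, the class II transactivator, (above background in 1 TP and 3 KT libraries), and H2-Ob (in no TP and 1 KT library).

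Part of the program described for tumor-associated macrophages was lower in TP. Of its 25 measured genes, 13 (52%) were called lower, against 14.2% of all genes. Another 3 (12%) were called higher, near the 10.5% of all genes. The median of the list was -2.83. That median was -1.14 with 6 genes at their bounds and 1 below background in both groups at 0, and 9 genes were lower with either normexp setting, with medians of -1.26 and -1.25. Higher in TP were Spp1, given above, Mgl2, a galactose lectin (15.13, 15.35, 16.04 and 16.56 in TP against 13.47 to 13.57 in KT, 2.25, SE 0.23, adjusted p = 4.94e-09), and Cd9, a tetraspanin (2.07, SE 0.32). Cd9 fell under 4-fold without the library labelled KT replicate 4 (1.96, adjusted p = 3.9e-05), and without TP replicate 4 both Mgl2 (1.98) and Cd9 (1.84) did, which left 1 gene called higher. Lower in TP were Cd274, the checkpoint ligand PD-L1 (15.75, 15.87, 15.76 and 15.52 in KT against 5.92 to 7.84 in TP, 3 of 4 above background, -9.02, SE 0.40, adjusted p = 3.8e-16), Il10 (at least 29.3-fold), Apoe, the lipid carrier (-8.50, SE 0.44), Msr1, a scavenger receptor (-7.47, SE 0.89), and Nos2, the inducible nitric oxide synthase (-5.22, SE 0.36). Trem2, Gpnmb and Mrc1, named after their values were seen, were not called. Trem2, a lipid receptor, read 11.28, 10.20, 9.59 and 7.88 in TP and 11.26, 11.30, 11.21 and 9.75 in KT (-1.14, adjusted p = 0.338).

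Inflammatory and sensing genes were lower in TP. Of 20 inflammatory genes, 17 were called lower and none higher, with a median of -6.59 (-5.32 with 7 genes at their bounds and 2 at 0). Cxcl9, a chemokine induced by interferon gamma, was at least 178-fold lower in TP, Il1b, interleukin 1 beta, at least 270-fold (14.79, 14.83, 14.80 and 14.82 in KT) and Cxcl2 at least 59.0-fold. Ptgs2, cyclooxygenase 2, was named after its values were seen, and it read 11.46 to 12.04 in TP and 11.86 to 12.21 in KT (-0.24, adjusted p = 0.78). Of 13 genes of Toll-like receptors and their adaptors, 11 were called lower, led by Tlr2 for bacterial lipopeptides (12.70 to 13.09 in KT against 4.2 to 5.73 in TP, -7.74, SE 0.59), Tlr7 for single-stranded RNA (-6.02, SE 0.80) and Tlr8 (at least 4.01-fold). Of 21 lysosomal genes, 14 were called lower, with a median of -2.55. Ctsh, Ctsc and Ctss, cathepsins of leukocytes, led with -9.86 (SE 0.96), -8.70 (SE 0.97) and -6.21 (SE 0.88). Of 15 genes of iron and heme, 6 (40%) were called lower, against 14.2% of all genes. Trf, transferrin, differed by -9 (SE 1.01), with TP replicate 1 at 7.82 and the other TP libraries at 2.90 to 5.09. Tfrc, the transferrin receptor through which dividing cells take up iron, read 7.51 to 9.10 in TP and 6.76 to 7.57 in KT (1.32, adjusted p = 0.0227).

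All 17 measured interferon-stimulated genes were called lower in TP, with a median of -6.17 and a summed linear signal of 18866 to 33185 in TP against 1224789 to 1265087 in KT. Rsad2, viperin, read 6.22, 6.11, 7.78 and 6.34 in TP and 17.29, 17.33, 17.34 and 17.49 in KT (-10.75, SE 0.45, adjusted p = 1.17e-16, 1720-fold), the largest downward difference among genes well above background in all 8 libraries. Mx1, a GTPase against viruses, differed by -10.06 (SE 0.47) and Ifit2 by -7.69 (SE 0.40). The KC means were 17.59 for Rsad2 and 16.17 for Mx1. In TP, 15 of the 17 genes were well above background in all 4 libraries. TP replicate 3 was the highest TP library for 14 of the 17, whereas TP replicate 1 was that library for 21 of the 24 pan-macrophage genes. GAAANNGAA, the core of the interferon-stimulated response element, was present in the windows of 9 of the 13 members with a window (69.2%, against 9.76% of all genes). Rsad2 and Ifit3 were taken from called members whose 250 bases before the start hold a match. A match was thus a condition for being shown. The 250 bases before the start of Rsad2 (chr12:26456453-26456702, minus strand) and Ifit3 (chr19:34583279-34583528, plus strand) are shown with matches on either strand in capitals.
Rsad2: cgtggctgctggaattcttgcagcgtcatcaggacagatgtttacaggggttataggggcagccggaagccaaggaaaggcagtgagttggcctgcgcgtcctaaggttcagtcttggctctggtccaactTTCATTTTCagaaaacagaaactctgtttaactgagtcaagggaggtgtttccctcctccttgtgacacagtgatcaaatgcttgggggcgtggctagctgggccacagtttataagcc
Ifit3: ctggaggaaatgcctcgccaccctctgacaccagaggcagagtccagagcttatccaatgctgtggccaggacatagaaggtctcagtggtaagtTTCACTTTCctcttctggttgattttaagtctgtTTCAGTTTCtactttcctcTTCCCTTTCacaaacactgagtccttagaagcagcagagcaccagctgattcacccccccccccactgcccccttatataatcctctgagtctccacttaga

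Ifit3, an RNA-binding interferon effector with 3 matches in the stretch shown, read 9.14, 9.77, 10.92 and 10.36 in TP and 16.92, 16.92, 16.88 and 16.93 in KT (-6.87, SE 0.38, adjusted p = 2.74e-14), and Rsad2 holds 1 match. The KC mean of Ifit3 was 16.87 and the TM mean 10.16.

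Further genes were named for the size of their difference alone. Well above background in all 8 libraries and higher in TP were Igfbp6, a binding protein of insulin-like growth factor II (14.44 to 14.80 against 4.72 to 6.38, 8.80, SE 0.50), Anln, anillin of the cleavage furrow (8.72, SE 0.60), Cpe, a carboxypeptidase (8.36, SE 0.60), Hist1h1b, a linker histone of S phase (8.15, SE 1.00), Shcbp1 (7.91), Cd34, a sialomucin of stem and endothelial cells (7.40, SE 0.41), and Thbs2, thrombospondin 2 (7.09, SE 0.48). Well above background in all TP and no KT libraries were Baiap2l1, at least 232-fold higher, Msln, mesothelin (159), Itgbl1 (126), Wnt10a, a Wnt ligand (120), Gap43 (85.0), Aldh3a1, an aldehyde dehydrogenase (78.3), and Glod5, Lgals7 and Dynap with 51.9 to 65.7. On the KT side, again above background in all 8, stood Cmpk2 (-9.72, SE 0.38), a mitochondrial nucleotide kinase, Gbp5 (-9.44, SE 0.37), a guanylate-binding protein, Srgn, serglycin (-9.33, SE 0.89), Egfl7, an endothelial factor (-9.19, SE 0.47), and Ms4a6d (-8.91, SE 0.90). Above background in all KT and no TP libraries were Ms4a4c (at least 1060-fold), Scimp (451), Ms4a8a (271), Slfn4 (230) and Slco3a1 (219). In all, 366 of 19111 genes were above background in every TP and no KT library, and 1503 in every KT and no TP library.

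The KT fraction held signal of other liver cells, and hepatocyte and sinusoidal endothelial markers were lower in TP as the macrophage lists were. Of 13 hepatocyte markers, 11 were called lower in TP, and the summed linear signal was 33310 to 49529 in KT and 125 to 177 in TP. Alb, albumin, read 13.74, 13.81, 13.68 and 14.30 in KT and was at least 141-fold lower in TP, where 11 of the 13 markers were above background in no library. All 12 sinusoidal endothelial markers were called lower (21996 to 31692 in KT, 129 to 554 in TP), among them Cdh5, VE-cadherin (at least 69.0-fold), and Stab2 (37.0). Of 11 neutrophil markers, 4 were called lower (3505 to 12265 in KT, 1097 to 2202 in TP), with S100a9 at 12.56, 12.61 and 12.41 in KT replicates 1 to 3 and 9.78 in the library labelled KT replicate 4. Of 8 erythroid markers, 3 were called lower (6753 to 7827 in KT, 79 to 238 in TP), among them the hemoglobin chains Hba-a1 (at least 46.2-fold) and Hbb-b1 (25.1). Of 10 stellate cell markers, 5 (50%) were called lower and 1 (10%) higher (5513 to 7661 in KT, 8784 to 13444 in TP). Of 14 T and NK cell markers 3 (21.4%) were called lower (2262 to 4733 in KT, 2310 to 10011 in TP). Of 8 B and plasma cell markers 3 (37.5%) were called lower (513 to 632 in KT, 56 to 143 in TP). Over all genes the share called lower was 14.2% and the share called higher 10.5%. The part of these cells in the differences of collagens, Cxcl12, Vegfc, Ctgf and the like was not tested.

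The TP libraries differed among themselves in single genes as well. Lum, lumican of fibroblasts, read 10.80 and 11.89 in TP replicates 1 and 2 but 4.45 and 6.03 in replicates 3 and 4 (3 of 4 above background), and 11.32 to 11.48 in KT. Thy1, a surface protein of fibroblasts and T cells, read 10.09, 12.65, 4.83 and 8.50. Neither passed the test against KT (adjusted p = 0.0146 and 0.462), and both were named after their values were seen. Mmp2, Glod5 and Lgals7 were likewise higher in TP replicates 1 and 2, Glod5 with 13.03 and 13.39 against 10.56 and 10.86. The medians of the mesenchymal list, 10.44 to 10.58, and of the stellate cell markers, highest in TP replicate 3 at 4.32, did not show this split, and Col1a2, given above, was level. Other lists had higher medians in TP replicates 1 and 2. In TP replicates 1 to 4 these were 8.98, 9.05, 8.56 and 8.12 for collagens and matrix. They were 12.47, 12.62, 11.58 and 11.38 for lysosome, and 11.02, 10.14, 8.84 and 8.70 for ligands that act on macrophages. The median level of the mitosis list was 11.71 and 11.77 in TP replicates 1 and 2 and 12.48 and 12.15 in replicates 3 and 4. The differences between TP replicates were not tested, because the labels give no reason to divide them.

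**Figure D5:**
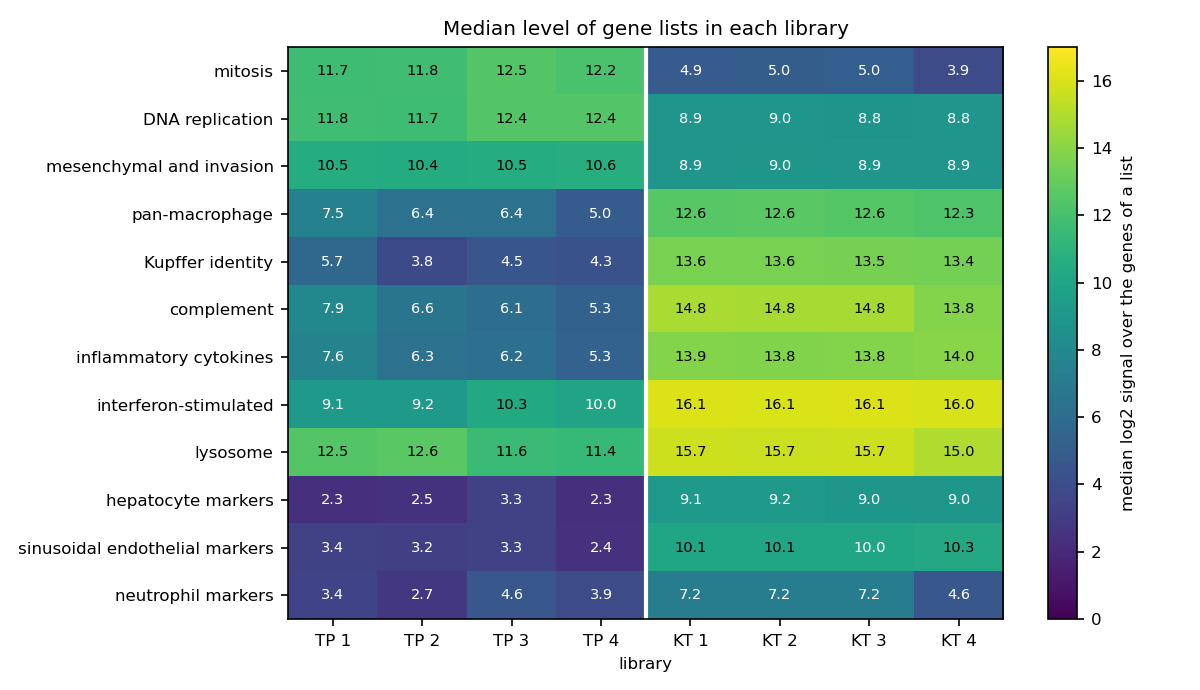
Median log2 level of each gene list in each TP and KT library, for 12 lists, with the library on the horizontal axis and the value printed in the cell. Pan-macrophage genes fall from 7.49 in TP replicate 1 to 4.97 in TP replicate 4 and stay at 12.32 or above in KT, and mitosis genes stay at 11.71 or above in TP.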

How the data were processed

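Gene expression was measured on 16 two-colour Agilent arrays of 32 samples in 8 groups of 4. The authors deposited scanner files made with Feature Extraction 10.7.3.1, whose processed signal is an intensity that was background-subtracted and scaled between the dyes of an array, and a table of quantile-normalised intensity on a linear scale. The KT channels were thus scaled against KC and the TP channels against TM before any step taken here. For each sample the channel that held its RNA was read. Control spots were left out, which left 59305 spots per array and 55681 probes. Outlier spots of a channel were left out too. Spots of a probe were averaged, log2 was taken and the 32 channels were quantile normalised in R 4.3.3. A single limma 3.58.1 fit (lmFit and eBayes) over all 8 groups gave TP minus KT, with Benjamini-Hochberg adjustment over all probes. The number of arrays limits the precision. Of several probes of a gene, the one that varied most over the 32 channels was taken. A bound sets the mean of the bright group against the dim group's detection limit after loess and Aquantile normalisation.

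Groups came from the sample labels. The arrays were made from 4 biological replicates per group, and no label pairs them. The members and gene lists were chosen with earlier results of these data known. Genes named are S100a4, Mki67, Vsig4 and members of the Kupffer, ligand and receptor lists. At most 3 called members of a list were named in each direction, taken by the size of their difference. The 10 largest differences in each direction were named among genes measured in both groups, and among those in all libraries of 1 group and none of the other. Further genes were named after their values were seen, and some genes are counted in their lists but not reported here. The fit was tested on simulated data. Alternatives were other background corrections, scalings, filters, sample sets, blocks, tests and thresholds, and each library left out. Promoter motifs were counted in Python 3.11.15. The authors' own comparisons were not used.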

Additional observations from a re-analysis of the deposited data

Results flagged for a closer look

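In each group of 4 libraries, the gap between the lowest or highest library and its nearest neighbour was divided by the range of the group, and values above Dixon's critical value were noted for the genes named. Of the 410 groups of the genes named, 84 passed, where chance gives about 1 in 20, and in 68 of these the library that stood apart was the one labelled KT replicate 4. The 410 include groups with fewer than 4 values, such as Il11 in KT, which were not examined. This library lay nearer to KC replicates 1 and 2 than to the other KT libraries, but not nearer to KC replicates 3 and 4. Its part in each gene was not tested beyond leaving it out.

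The share of the range taken by that gap, with the library labelled KT replicate 4 lowest, was 0.943 for S100a4, 0.958 for Vsig4, 0.854 for Tk1, 0.889 for Tpm2, 0.924 for S100a6, 0.91 for Col1a1, 0.883 for Adam8, 0.928 for Il1rl1, 0.97 for Fpr1, 0.904 for Fpr2, 0.92 for Aif1 and 0.985 for Fcgr1. It was 0.933 for Cd5l, 0.88 for C1qa, 0.918 for C1qc, 0.863 for Apoe, 0.966 for Ctsh, 0.915 for Ctsc, 0.85 for Slc11a1, 0.884 for Tlr7, 0.915 for Tlr8, 0.93 for S100a9, 0.925 for Marco and 0.92 for Siglec1. The share came to 0.857 for C6, 0.847 for Nr1h3, 0.91 for Fcna, 0.85 for Vegfa, 0.96 for Mif, 0.871 for Csf1r, 0.853 for Ccr1, 0.992 for Ccr2, 0.946 for Sirpa, 0.918 for Anln, 0.851 for Hist1h1b and 0.858 for Ms4a6d. It reached 0.943 for Ms4a8a, 0.938 for Lyz2, 0.937 for Trem2, 0.853 for Thy1, 0.856 for Sfpi1, 0.844 for Twist1 and 0.972 for Ube2c.

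With the library labelled KT replicate 4 highest, the share was 0.838 for Npm1, 0.891 for Wdr12, 0.875 for Krt18, 0.915 for Ctgf, 0.926 for Tagln, 0.939 for Postn, 0.925 for Col4a1, 0.991 for Cxcl12, 0.95 for Cd40, 0.956 for Cxcl2, 0.853 for Hba-a1 and 0.955 for Csf1. It was 0.968 for Csf2, 0.925 for Csf3, 0.95 for Cxcl1, 0.97 for Cxcl5, 0.831 for Il6, 0.879 for Lifr, 0.875 for Egfl7, 0.854 for Myc, 0.938 for Nop58, 0.852 for Snai2, 0.858 for Tfrc and 0.912 for Tpx2. The share came to 0.929 for Zeb1.

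Among the other libraries, TP replicate 4 was highest for Vegfc (0.858), TP replicate 2 was highest for Cxcl9 (0.956), TP replicate 3 was highest for Rsad2 (0.862), TP replicate 3 was highest for Alb (0.93), TP replicate 4 was highest for S100a9 (0.976), TP replicate 4 was highest for Hpgd (0.979), TP replicate 4 was highest for Ccr1 (0.914), TP replicate 2 was lowest for Siglecg (0.903), TP replicate 2 was highest for Igfbp6 (0.835), TP replicate 3 was highest for Cmpk2 (0.854), KT replicate 1 was highest for Glod5 (0.896), TP replicate 3 was highest for Ms4a4c (0.838), KT replicate 3 was highest for Epcam (0.913), KT replicate 2 was highest for Aurkb (0.971), KT replicate 3 was lowest for Ifit3 (0.849), and TP replicate 3 was highest for Top2a (0.89).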

How the results depend on the processing

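No probe called in 1 direction was called in the other under any alternative. The 4139 probes called higher and 4690 lower became 2132 and 2673 with normexp and quantile normalisation, 2276 and 2621 with normexp, loess and Aquantile, 13967 and 10121 where only an adjusted p below 0.05 was asked, and 903 and 2060 at 16-fold or more. Leaving out each library in turn gave 3935 to 4146 higher and 4493 to 4653 lower. The t-test with Benjamini-Hochberg adjustment that the methods name, run on the 8 channels, called 3357 and 3717, and 3862 and 4335 where the same threshold was set on the unadjusted p. The share of calls that were higher, 46.9%, was 51.3% with scaling to the 75th percentile, 58.0% with no minimum fold and 30.5% at 16-fold. At 16-fold or more, the list counts were 6 higher for DNA replication, 0 for ribosome biogenesis and 1 for ligands, and 3 lower for collagens, 4 for lysosome, 3 for iron, 7 for Toll-like receptors and 2 for stellate cells. With no minimum fold, 15 ribosome genes were higher, 9 collagen genes higher and 8 lower, 3 iron genes higher and 10 lower, 6 epithelial genes higher and 5 lower, 7 glycolytic genes higher and 5 lower, and 5 matrix proteases higher and 9 lower. The probe with the highest mean left 1 ribosome gene higher. The t-test left 3 mesenchymal genes, 8 ligands, 1 matrix protease, 8 genes of the tumor-associated macrophage program, 2 neutrophil markers and 1 T and NK cell marker lower, and 1 gene of the tumor-associated macrophage program higher. Normexp with quantile normalisation left 2 neutrophil markers lower, and both normexp settings 1 epithelial gene higher and 0 T and NK cell and 1 B and plasma cell markers lower. The cause of these changes was not tested, other than that a stricter or looser threshold moves a count by construction. The sign of some small differences that were not called turned. Csf3r was 0.21 with scaling to the 75th percentile, Cxcr2 was 0 with normexp and quantile, and Tgfbr1 was 0.03 and 0.05 under the 2 normexp settings, 0.17 with scaling to the 75th percentile and 0.95 on its probe with the highest mean. Epcam, -0.15 over all libraries, ran from -0.46 to 0.64 with each library left out, and it was 0.01 without TP replicate 1 and 0.64 without KT replicate 3. Epcam was well above background in no TP library, and the probes used for Cxcr2 and Tgfbr1 in no library of either group. Their signs thus rest in part on signals at background. The list medians of T and NK cells (0.17) and collagens (0.11) turned positive with dim probes left out, and that of erythroid markers (0.01) with scaling to the 75th percentile. Among the genes named, some calls close to the threshold also turned on single libraries other than KT replicate 4. Lgals4 lost its call without any 1 of the 8 (1.85 to 2.09). Ccl2 lost it without TP replicate 2, 3 or 4 or KT replicate 1, 2 or 3 (-2.93 to -2.77), Krt18 without TP replicate 2, 3 or 4 or KT replicate 1, 2 or 3 (3.14 to 3.55), and Pltp without TP replicate 1, 2 or 3 or KT replicate 1 or 2 (-3.01 to -2.68). Col1a1 lost it without TP replicate 2 (4.58) or 4 (4.48), and Mgl2 (1.98) and Cd9 (1.84) without TP replicate 4. Calls were gained by Nop56 without TP replicate 1 (2.02) or 2 (2.10), by Nop58 (2.08) and Nop56 (2.21) without KT replicate 4, by Tgfb1 (-2.11) and Lum (-4.31) without TP replicate 2 and by Coro1a (-4.22) without KT replicate 3.

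Over 18684 probes, deviations of same-numbered TP and KT libraries correlated at 0.091, 0.097, 0 and 0.143, and only numbers 1 and 4 fitted their own number best. The main fit did not pair the samples, and 4 such correlations cannot decide whether same-numbered samples belong together. With a replicate block, 4113 probes were called higher and 4658 lower. Dim probes limit the folds, since a group at background gives only a bound.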
